A study of Mus musculus with 3 samples.

Results

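RNA levels of 10 genes that encode transcription factors of T lineage identity, Tcf7, Lef1, Satb1, Bcl11b, Tox, Gata3, Runx1, Runx3, Cbfb and Ets1, were read in mouse regulatory T cells (Treg cells), the CD4 T cells that express Foxp3 and restrain immune responses. The 10 genes were taken by symbol from 55536 genes in the deposited gene tables, 22028 of them protein-coding. Polyadenylated RNA of 1 biological replicate had been sequenced in 3 libraries, which the labels number as technical replicates 1, 2 and 3. Per the labels, the source was a 4-month-old adult male carrying the alleles Foxp3CreERT2 and Rosa26YFP, and its Treg cells are recorded as derived from hematopoietic cells of bone marrow. Foxp3CreERT2 places an inducible Cre recombinase under the Foxp3 gene, and Rosa26YFP is a reporter that Cre can switch on. Any inducer given, the organ sampled and the gate of any sort are not stated in the labels used here. All 3 libraries form 1 group with no control, so the data show the level of each gene and its spread among libraries, and no effect of a treatment or genotype.

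These factors act in sequence as a thymic progenitor becomes a T cell. Notch signals switch on Tcf7 and Gata3, Bcl11b then closes alternative fates, and RUNX proteins, which bind DNA with their partner Cbfb, set the expression of Cd4 and Cd8. In Treg cells, Runx1 with Cbfb, Ets1 and Gata3 are known to bind at the Foxp3 locus or to act with Foxp3 protein, and Satb1 is known for opening Treg enhancers in the thymus. Tcf7 and Lef1, a closely related pair of factors that bind beta-catenin and Groucho corepressors, are known for high levels in resting T cells.

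The start sites in use differ among the 10 genes. Sequence upstream of annotated starts is shown for Lef1, Runx1 and Runx3, whose alternative starts took unequal transcript shares, and for a Tcf7 start. Of the 10 genes, 8 have an entry in the RefSeq promoter table (GRCm38.p6, whose primary chromosomes have the coordinates of mm10), and Tox and Ets1 have none. The windows are the 250 bases before a RefSeq start, cut to the longest stretch free of annotated exons, 5′ to 3′ on the gene's strand. For each of these groups of starts 1 window is shown. The distal Runx1 and proximal Runx3 windows stop short of the RefSeq start. There the 75 and 49 bases next to the start were annotated exon and were not searched. The window of the upstream Lef1 start lies wholly in annotated exons and is not shown. Nor is that of a further RefSeq Lef1 start (chr3:131156044-131156293), 42438 bases from the nearest group of annotated transcript starts, which held 2 matches to the TCF and LEF motif. Capitals mark matches to core motifs of the families studied, searched on both strands as TGTGGT for RUNX, CTTTGA for TCF and LEF, CGGAAG for ETS and AGATAA for GATA.
Lef1 downstream start, chr3:131112541-131112790, plus strand: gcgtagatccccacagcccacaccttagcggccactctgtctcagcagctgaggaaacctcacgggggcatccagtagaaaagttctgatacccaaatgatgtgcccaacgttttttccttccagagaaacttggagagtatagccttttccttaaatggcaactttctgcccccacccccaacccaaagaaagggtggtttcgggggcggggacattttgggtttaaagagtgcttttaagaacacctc
Runx1 distal start, chr16:92826150-92826324, minus strand: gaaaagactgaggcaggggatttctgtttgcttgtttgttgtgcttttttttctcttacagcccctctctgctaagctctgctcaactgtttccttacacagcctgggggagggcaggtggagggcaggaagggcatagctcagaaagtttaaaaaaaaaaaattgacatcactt
Runx1 proximal start, chr16:92697330-92697579, minus strand: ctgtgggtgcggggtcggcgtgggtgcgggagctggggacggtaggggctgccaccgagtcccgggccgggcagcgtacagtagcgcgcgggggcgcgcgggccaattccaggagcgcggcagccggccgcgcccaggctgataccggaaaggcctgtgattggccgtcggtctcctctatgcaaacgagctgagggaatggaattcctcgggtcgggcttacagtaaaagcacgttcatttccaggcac
Runx3 distal start, chr4:135120448-135120644, plus strand: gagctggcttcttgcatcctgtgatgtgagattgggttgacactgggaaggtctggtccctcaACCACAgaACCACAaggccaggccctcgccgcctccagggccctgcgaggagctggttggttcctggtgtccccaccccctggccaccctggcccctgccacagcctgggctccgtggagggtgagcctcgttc
Runx3 proximal start, chr4:135152295-135152495, plus strand: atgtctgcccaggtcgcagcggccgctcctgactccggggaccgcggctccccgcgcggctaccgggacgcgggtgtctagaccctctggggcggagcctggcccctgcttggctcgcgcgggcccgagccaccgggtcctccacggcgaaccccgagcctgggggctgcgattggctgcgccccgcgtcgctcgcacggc
Tcf7 start, chr11:52282596-52282711, minus strand: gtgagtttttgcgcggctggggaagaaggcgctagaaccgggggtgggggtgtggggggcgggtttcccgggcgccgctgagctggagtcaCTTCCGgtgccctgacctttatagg
The 197 bases before the distal Runx3 start held 2 matches to the RUNX motif, both on the opposite strand, at 129 to 134 and at 121 to 126 bases before the RefSeq start. In 10.9% of all RefSeq promoter windows of that length at least 1 such match was found. The 116 bases before the printed Tcf7 start held 1 match to the ETS motif, at 20 to 25 bases before the start, against 9.10% of all windows of 116 bases. The window of another RefSeq start in the same Tcf7 group (chr11:52283015-52283264) is not shown and held no match to any of the motifs. The printed Lef1, Runx1 and proximal Runx3 windows held none of the 4 letter strings, which says only that these letters are not in these windows. The windows of the proximal starts were richer in G and C than those of the distal starts, with 67.6% for Runx1 and 77.1% for Runx3, against 45.1% for the distal Runx1 window and 65.5% for the distal Runx3 window.

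The gene tables held 9299054, 9188612 and 8284381 expected counts in libraries 1, 2 and 3, and a count of 0 allows a level of up to 0.323, 0.326 and 0.362 CPM. All 7 Treg markers and all 7 T cell markers were detected, that is, at 1 TPM (a level per transcript length, scaled to the same sum in every library) or more in every library. Foxp3 stood at 27.6, 43.7 and 47.1 TPM in libraries 1, 2 and 3. Markers of other cells were present too. All 10 B cell markers were detected, with summed levels of 2387, 1865 and 2042 TPM, most of it Ighm. Erythroid markers summed to 1685, 9.13 and 1497 TPM and plasma cell markers to 2004, 219 and 1402 TPM, with library 2 low in both. Cd8a and Cd8b1 together gave 17.2, 16.0 and 21.4 TPM, NK and innate markers 9.66, 12.2 and 16.2, neutrophil markers 45.7, 0.600 and 4.09, macrophage markers 25.6, 19.4 and 38.9, dendritic markers 2.84, 3.85 and 6.02 and progenitor markers 0.410, 1.96 and 2.11 TPM. Gata2 and Hoxa9 were listed at 0 in every library among progenitor markers, and Elane among neutrophil markers. The part that other cells had in the levels below was not tested.

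All 10 genes were detected, against 21.9% of all genes and 45.9% of protein-coding genes. Their levels spanned 2 orders of magnitude, from 716 ± 177 TPM for Ets1 (SD, n = 3 libraries, as for all SDs here) to 7.10 ± 0.665 TPM for Runx3. Together they gave 1230, 1712 and 1674 TPM in libraries 1, 2 and 3. The median detected protein-coding gene stood at 20.1 TPM, and 8 of the 10 genes were above it. In bulk RNA, fewer cells of a type and less RNA per cell cannot be told apart, and the SDs cover the spread of these libraries, not differences between animals. Whether the libraries were made from 1 RNA pool is not stated in the labels, and the erythroid, plasma cell and neutrophil markers given above differ widely between them.

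**Figure D1:**
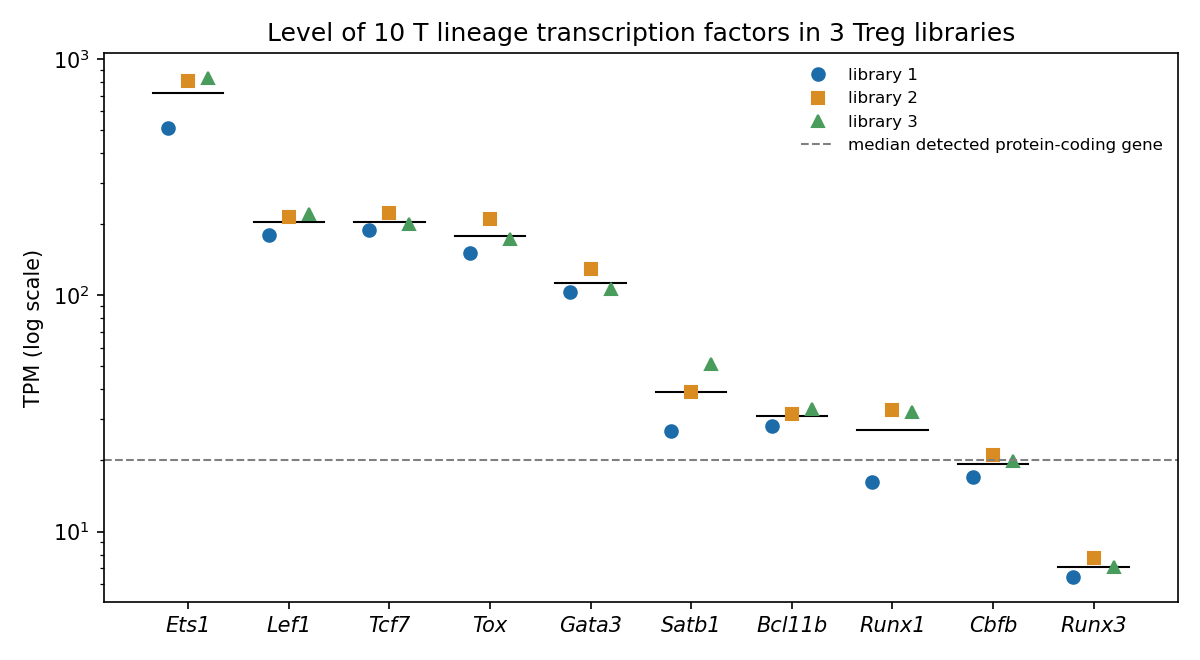
Level of the 10 genes in TPM (log axis), ordered by mean, with 1 point per library (circle, library 1; square, library 2; triangle, library 3), a bar for the mean and a dashed line at the median of detected protein-coding genes, 20.1 TPM. Library 1 is the lowest of the 3 for every gene, and Ets1 stands apart from the rest.

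Ets1 (chr9:32636221-32757820, plus strand, mm10), the founding ETS factor, which activates T cell receptor genes, was the highest of the 10. It had 20186, 26967 and 25195 expected counts, or 512, 804 and 831 TPM, in libraries 1, 2 and 3. It ranked 166th of 22028 protein-coding genes, above 98.4% of those detected. Its lowest library still exceeded the highest library of every other member.

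Lef1 (chr3:131110471-131224356, plus strand) had 180, 214 and 221 TPM, and Tcf7 (chr11:52252371-52283014, minus strand) had 190, 223 and 201 TPM, in libraries 1, 2 and 3. The pair ranked 613th and 616th among protein-coding genes. The ratio of Tcf7 to Lef1 was 1.05, 1.04 and 0.909 in the 3 libraries, with a mean of 1.00 ± 0.080, and Lef1 was the higher in library 3 only. Their levels did not differ beyond the spread among libraries.

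Tox (chr4:6686353-6991557, minus strand), an HMG-box factor needed for CD4 T cells to develop, had 150, 209 and 172 TPM in libraries 1, 2 and 3. Gata3 (chr2:9857078-9890034, minus strand), which drives early T cell development and later the Th2 program, had 104, 129 and 106 TPM. Both stood in the upper part of the detected range, at ranks 733 and 1210, and the Tox values lay above the Gata3 values without overlap. The mean level of Tox was 1.57 times that of Gata3.

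Satb1 (chr17:51736187-51833290, minus strand), which folds chromatin in T cells, had 26.6, 39.1 and 51.1 TPM, with library 3 the highest. Bcl11b (chr12:107910403-108003602, minus strand), the zinc finger factor of T cell commitment, had 28.0, 31.6 and 32.9 TPM. The ranges of these 2 genes overlapped in this table, and both ranked in the middle of the detected genes, at 3295 and 3898. Mean Gata3 was 2.89 times mean Satb1, the next gene in the order. In the second transcript table, made by the authors from the reads with a transcript index, Satb1 had 24.4, 38.6 and 47.6 TPM. That was wholly above Bcl11b at 14.3, 17.6 and 17.7 TPM, and closer to Gata3 at 54.4, 73.7 and 62.5 TPM. Of this Satb1 level, 30.4%, 31.9% and 33.0% was in Satb1-210, a short form listed at 0 in the first table. The order without that form was not computed.

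Runx1 (chr16:92601466-92826149, minus strand) had 16.2, 32.9 and 31.9 TPM in libraries 1, 2 and 3. Its binding partner Cbfb (chr8:105170674-105217989, plus strand), which carries no DNA-binding domain of its own but strengthens RUNX binding, had 17.1, 21.1 and 19.97 TPM. Runx3 (chr4:135120652-135177990, plus strand), which represses Cd4 in the CD8 lineage, had 6.43, 7.76 and 7.11 TPM, the lowest of the 10. The authors' posterior interval for Runx3 ran from 5.45 to 12.4 TPM in library 1, from 6.45 to 14.2 in library 2 and from 5.87 to 14.4 in library 3, so its level is known less closely than that of the abundant members.

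Within the RUNX family, the gene total of Runx1 was 2.52, 4.23 and 4.49 times that of Runx3 in libraries 1, 2 and 3. The mean ratio was 3.75 ± 1.07, and 2.40 in the authors' posterior mean TPM. Most of the Runx1 total was assigned to noncoding transcripts. The full-length coding transcript Runx1-201 had 5.25, 8.43 and 6.51 TPM, beside 5.98, 7.76 and 7.11 TPM for Runx3-201, and was the higher in library 2 only. The third family member Runx2, known best from bone, had 3.59, 4.76 and 4.26 TPM. Cbfb amounted to 0.651, 0.464 and 0.461 of the summed TPM of the 3 Runx genes, or 0.525 ± 0.109. In all 3 libraries there was thus less Cbfb RNA than Runx RNA by gene totals, which include the noncoding Runx1 transcripts. The ratio of Cbfb to Runx in coding transcripts alone was not computed.

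Along the order from Ets1 to Runx3, 4 of the 9 neighbouring pairs had ranges over libraries that did not overlap, namely Ets1 with Lef1, Tox with Gata3, Gata3 with Satb1 and Cbfb with Runx3. The mean ratios of these pairs were 3.49, 1.57, 2.89 and 2.73. The other 5 pairs did not differ beyond their spread, although Tcf7 exceeded Tox in each library. Satb1, Bcl11b, Runx1 and Cbfb form a run in which the order of neighbours changed with the library in this table. In the second transcript table Runx1 (10.4, 19.5 and 19.1 TPM) was above Cbfb (8.50, 13.4 and 10.7 TPM) in each library.

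Library 1 had the lowest TPM of the 3 for 10 of 10 members, against 64.2% of the 13071 genes with 30 or more counts. With counts scaled by TMM, a factor per library set from most genes, library 1 was lowest for 3 members (Ets1, Satb1 and Runx1), against 40.4% of genes. A chi-square test of each gene's counts against the scaled library totals called 54.5% of genes different between libraries at an adjusted p of 0.05, and 8 of the 10 members. No test set the count of members against that share, and the calls compare these 3 libraries with counting noise, not conditions. Against the common dispersion that edgeR fitted to all genes tested (a coefficient of variation of 20.2%), 0.972% of genes and 0 of 10 members passed. In that comparison 0 members had an unadjusted p under 0.05. The 20.2% is above the median scaled coefficient of variation, 13.5% over the 8332 genes with a mean scaled count of 100 or more. The 0 therefore does not show that members varied no more than a typical gene.

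**Figure D2:**
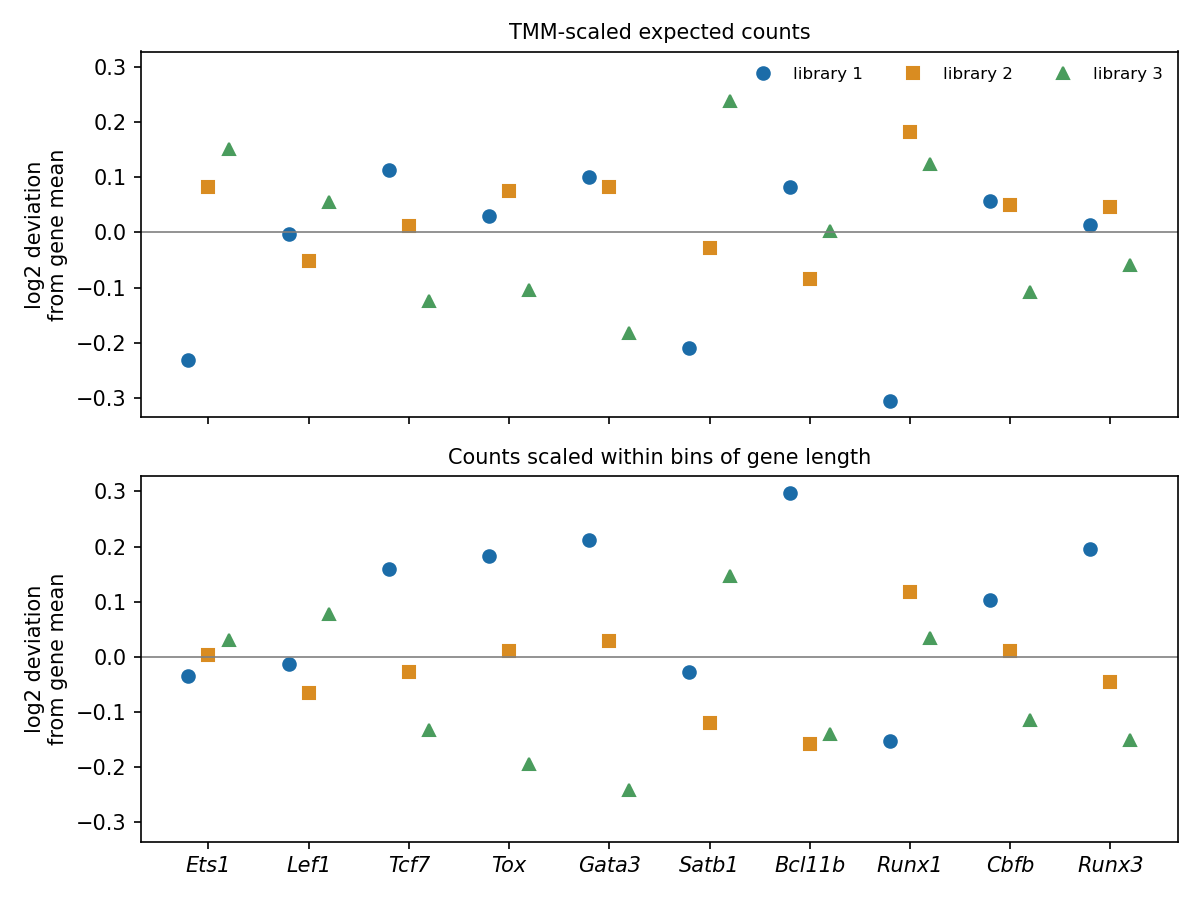
Deviation of each library from the gene's mean, in log2 units of scaled count, for the 10 genes in order of level, with TMM scaling (upper panel) and with scaling within 20 bins of gene length (lower panel). Under TMM, library 1 lies lowest for Ets1, Satb1 and Runx1 by 0.21 to 0.31 below the mean, and with length bins it stays lowest for Ets1 and Runx1 only.

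Runx1 varied most among libraries in TMM-scaled counts. It had 457, 688 and 589 expected counts in libraries 1, 2 and 3, and its scaled coefficient of variation was 17.4%. Library 1 stood at 0.714 of library 2 (95% exact interval 0.633 to 0.804) and at 0.743 of library 3 (0.656 to 0.841), while libraries 2 and 3 did not differ (1.04, 0.931 to 1.16). Its adjusted p was 1.30e-07 in the chi-square test over all genes and 0.68 without library 1, so the call rests on that library.

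Satb1 had 798, 972 and 1043 expected counts and a coefficient of variation of 15.8%. Library 1 was at 0.882 of library 2 (0.802 to 0.970) and at 0.733 of library 3 (0.667 to 0.804), and library 2 was at 0.831 of library 3 (0.760 to 0.907). Each pair of libraries differed beyond counting error, with library 3 the highest. Its adjusted p was 7.87e-10, and 0.056 without library 3.

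Ets1, with the deepest counts, gave the smallest adjusted p (7.08e-189) at a moderate coefficient of variation of 13.6%. Library 1 held 0.804 of the scaled count of library 2 (0.790 to 0.819) and 0.767 of that of library 3 (0.753 to 0.781). Libraries 2 and 3 differed by less, at 0.954 (0.938 to 0.970). The call held without each library in turn.

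Gata3 and Tcf7 leaned the other way. Gata3 in library 3 was low, with library 1 at 1.22 times library 3 (1.15 to 1.29) and library 2 at 1.20 times (1.13 to 1.27), and its adjusted p of 4.54e-11 became 0.36 without library 3. Tcf7 in library 1 was 1.18 times library 3 (1.12 to 1.24) and 1.07 times library 2 (1.02 to 1.13), with an adjusted p of 3.09e-09. Tox in library 2 was 1.13 times library 3 (1.08 to 1.18), and its adjusted p of 6.23e-07 became 0.69 without library 3.

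Lef1, Bcl11b, Cbfb and Runx3 were the steadiest in TMM-scaled counts. Their coefficients of variation were 3.70%, 5.72%, 6.32% and 3.71%. Lef1 passed at an adjusted p of 0.0373 and Bcl11b at 0.00748, whereas Cbfb (0.378) and Runx3 (0.825) did not pass, the last with only 180, 198 and 164 expected counts. The Lef1 call was lost without library 2 (0.22) or library 3 (0.079), and the Bcl11b call without library 1 (0.24) or library 2 (0.18). Over the 10 members the median coefficient of variation was 7.28%, beside 13.5% over the 8332 genes with a mean scaled count of 100 or more. Both values include counting noise, and the genes were not matched to the members on count or length. The comparison thus does not show the members to be unusually steady.

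Gene length moved with the library. Across 10897 protein-coding genes the log2 ratio of library 1 to libraries 2 and 3 was lower in longer genes (Spearman rho of -0.550 across genes, which share the 3 libraries), and across the 10 members rho was -0.261. When counts were scaled within bins of gene length, the log2 ratio of library 1 to the mean of libraries 2 and 3 for Ets1 was -0.05, against -0.35 under TMM. That of Satb1 was -0.05 against -0.32, and that of Runx1 -0.23 against -0.46. For Bcl11b the 2 values were 0.45 against 0.12, its length-bin value being the highest of the 10, and for Runx3 0.29 against 0.02. Library 1 then stayed lowest for 2 members, Ets1 and Runx1, against 37.4% of genes.

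Most of the 10 genes were carried by 1 main coding transcript, and Runx1, Satb1 and Cbfb were the exceptions. Shares are percents of the gene's TPM as the authors' transcript table gives them, estimated by a model from reads that transcripts share. Ets1-201 took 99.2% ± 0.047 of Ets1, Tcf7-201 99.0% ± 0.515 of Tcf7, Bcl11b-201 99.7% ± 0.287 of Bcl11b and Gata3-201 98.9% ± 0.163 of Gata3. The Ets1 form Ets1-202, which lacks 261 of the 1320 coding bases from within the coding sequence, took 0.090%, 0.050% and 0.070% in libraries 1, 2 and 3. Both annotated Tcf7 transcripts share the same 909 coding bases, so this annotation cannot show longer and shorter Tcf7 proteins apart.

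**Figure D3:**
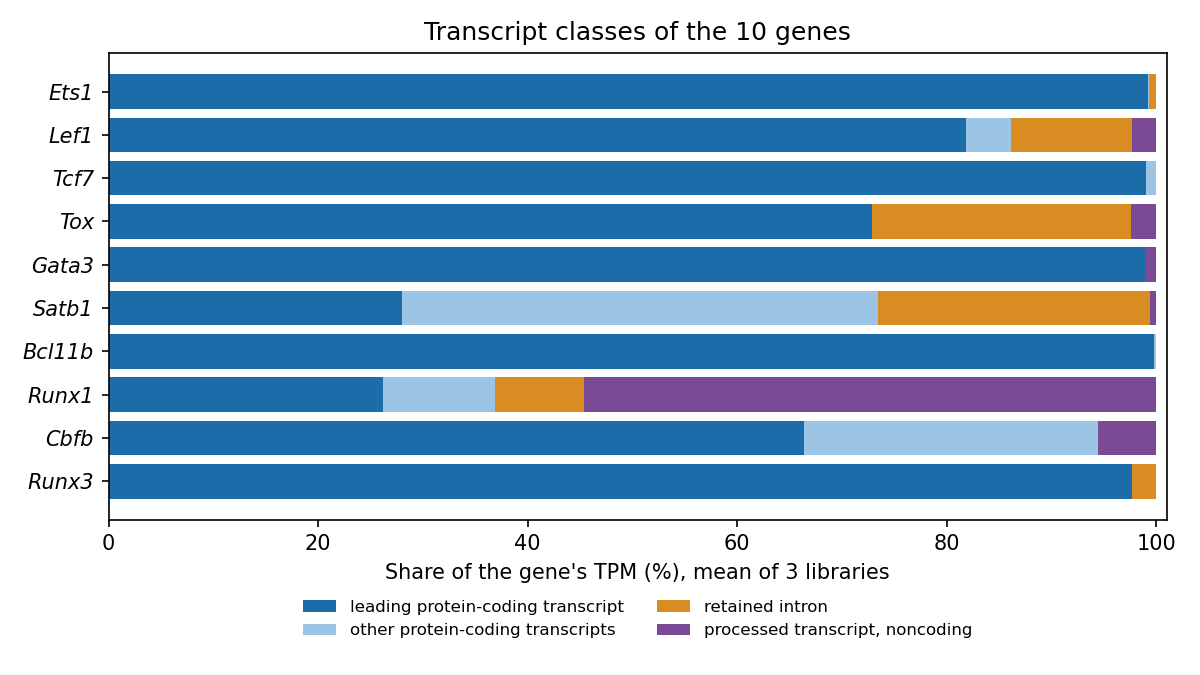
Share of each gene's TPM (%, mean of 3 libraries) in the leading protein-coding transcript, other protein-coding transcripts, retained-intron transcripts and noncoding processed transcripts, by the annotation's classes. Runx1 is the only one of the 10 genes with most of its TPM outside protein-coding transcripts (36.9% coding), and Satb1 and Cbfb are spread over several coding forms.

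Lef1 was read mainly from a start 2326 bases downstream of its first annotated start. Transcripts of this downstream group took 84.4%, 85.1% and 89.9% of Lef1 in libraries 1, 2 and 3, whereas those of the upstream start took 3.79%, 4.76% and 4.18%. The leading transcript Lef1-203 took 81.9% ± 1.92. It has 993 coding bases, 984 of them shared with the 1191 of the upstream form Lef1-201, and all 207 bases that it lacks lie at the 5′ end of the coding sequence. Lef1-201 itself took 0%, 2.62% and 1.92%. LEF1 is known in human cells for an internal promoter whose product lacks the beta-catenin binding region at the N terminus, and whether Lef1-203 encodes the mouse counterpart was not tested. Lef1 exons overlap those of Gm43352 on the opposite strand over 1208 bases, and that gene had 8.74, 13.2 and 8.76 expected counts.

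Runx1 has a distal and a proximal promoter, which give proteins with different N termini. Transcripts of the distal starts took 89.1%, 81.8% and 81.8% of Runx1 in libraries 1, 2 and 3, and those of the proximal starts, 128821 bases downstream, took 8.01%, 8.37% and 10.8%. The largest part of the distal group was the noncoding transcript Runx1-207, at 56.6%, 51.3% and 55.8%, from 175, 274 and 261 expected counts. The full-length coding transcript Runx1-201 took 32.4%, 25.7% and 20.4%, from 241, 330 and 230 expected counts. By TPM the noncoding form exceeded the coding one in every library, while by counts, which grow with transcript length, it did so in library 3 only. The proximal coding form Runx1-202 took 0.547% ± 0.265, and the retained-intron transcript Runx1-206 made up nearly all of that group at 8.52% ± 1.73. Further coding transcripts with starts near the proximal one were grouped apart. Runx1-203, whose 1353 coding bases hold all 1161 of Runx1-202, took 0%, 0.310% and 3.48%, and the short Runx1-205 took 2.92%, 9.51% and 3.94%.

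Runx3 was likewise assigned mainly to its distal start. Runx3-201 took 92.9%, 100% and 100% in libraries 1, 2 and 3, but 59.6% in the mean by the authors' posterior mean percent. The rest in library 1 was the retained-intron transcript Runx3-206 at 7.08%, which rests on 1.00 expected count. Runx3-202, the coding form of the proximal start 31844 bases downstream, was listed at 0 in every library. Of the Runx3 windows printed, the distal one belongs to a start that took 97.6% ± 4.09 of the gene's TPM. The proximal one ends right before the start of Runx3-202, which took none. The 2.36% ± 4.09 of the proximal group was all Runx3-206, which starts 393 bases from the RefSeq start of that window.

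Satb1 was divided over 11 groups of starts within 91024 bases. Satb1-213 took 28.0% ± 4.60, Satb1-202 24.5% ± 5.47, the retained-intron transcript Satb1-209 17.6% ± 3.83 and Satb1-204 12.5% ± 3.97. Satb1-213, Satb1-204 and the other transcripts with the same coding exons share 1 coding sequence of 2292 bases, and together they took 50.5%, 46.0% and 35.4%. The retained-intron transcripts of Satb1 gave 19.1%, 29.1% and 29.8%, the lowest in library 1. The second transcript table put 30.4%, 31.9% and 33.0% of Satb1 in Satb1-210, a short form that the first table lists at 0, so the division of Satb1 depends on the method.

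Tox-201, the only coding transcript of Tox, took 72.9% ± 4.35, and the retained-intron transcript Tox-203 took 20.6% ± 1.77. Cbfb was shared by Cbfb-203 with 444 coding bases at 66.4% ± 6.07, Cbfb-202 with 546 at 17.8% ± 3.47 and Cbfb-201 with 561 at 9.23% ± 8.06. Cbfb-201 was uneven, with 18.5% in library 1 and 4.02% and 5.15% in libraries 2 and 3. Its expected counts were 69.0, 15.8 and 17.3.

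The deposited whole-number counts, made for the older GENCODE M4 annotation, ranked the members differently. Over genes with 100 or more expected counts in each library, the median ratio of M4 count to expected count was 1.17, 1.16 and 1.19 in libraries 1, 2 and 3. For Ets1 it was 0.072, 0.123 and 0.143, with 1460, 3311 and 3607 M4 counts. Bcl11b stood at 0.115 in each library and Runx3 at 0.133, 0.207 and 0.177. These 3 members were under 0.25 in every library, against 4.94% of the 7489 genes compared. None of the 3 has an annotated exon that overlaps another gene in M21, which is also true of Tcf7 and Cbfb. The M4 gene models and the reason for the gap were not analysed here.

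**Figure D4:**
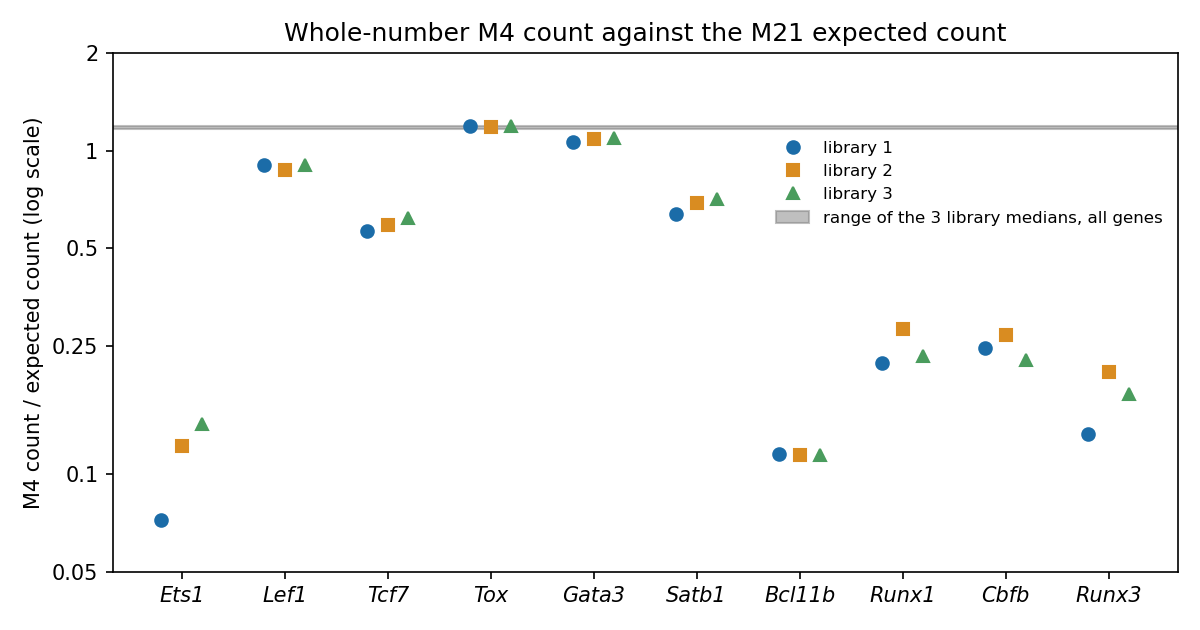
Ratio of the whole-number M4 count to the M21 expected count for the 10 genes (log axis), 1 point per library, with the range of the 3 library medians over all genes compared as a grey band at 1.16 to 1.19. Ets1, Bcl11b and Runx3 lie under 0.25 in every library, Runx1 and Cbfb around it, and Tox and Gata3 close to the band.

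Runx1 (0.221, 0.281 and 0.233) and Cbfb (0.245, 0.270 and 0.225) were also low by this ratio, Tcf7 (0.564, 0.591 and 0.617) and Satb1 (0.638, 0.686 and 0.707) less so. Lef1, Gata3 and Tox had ratios from 0.869 to 1.19. The log2 ratio of library 1 to libraries 2 and 3 for Ets1 was -1.24 in M4 counts, against -0.35 in expected counts. By M4 counts per gene length, with lengths from M21 because the M4 gene models were not analysed, Tox was the first of the 10 and Ets1 the fifth. The place of Ets1 at the top therefore holds for the M21 tables and not for the M4 table.

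Relatives of the 10 genes showed which member of each family led in these cells. Of 15 genes for TCF and LEF relatives, beta-catenin and Groucho corepressors, 12 were detected, and 5 of the 13 tested differed between libraries. The short Groucho protein gene Tle5 (listed under its older symbol Aes) had 62.7, 109 and 90.8 TPM and beta-catenin, Ctnnb1, 44.3, 46.9 and 51.2 TPM. The other family members Tcf7l1 and Tcf7l2 averaged 1.63 and 2.56 TPM, far under Tcf7 and Lef1, and the corepressor Tle1 was the lowest of the list at 0.790 TPM.

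Of 7 RUNX relatives and cofactors, 5 were detected, and 4 of the 6 tested differed between libraries. The histone deacetylase gene Hdac3 averaged 52.8 TPM and the corepressor scaffold Sin3a 34.6 TPM, while Runx1t1, known from a leukemia fusion with RUNX1, was lowest at 0.180 TPM. Of 18 other ETS genes, 13 were detected, and 8 of the 13 tested differed between libraries. Elf1 (144 TPM) and Fli1 (80.2 TPM) followed Ets1, and Elf3 was listed at 0 in every library.

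**Figure D5:**
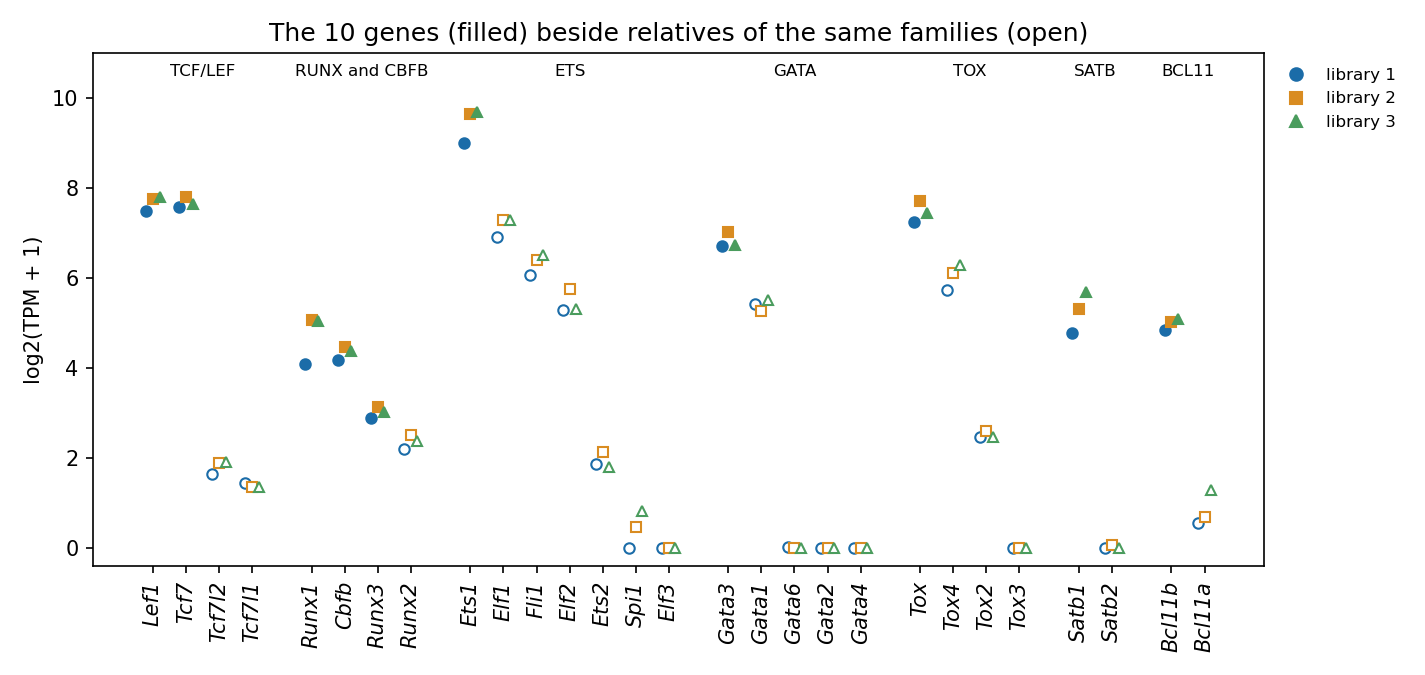
log2(TPM + 1) of the 10 genes (filled symbols) and of relatives in the same families (open symbols), 1 symbol per library (circle, library 1; square, library 2; triangle, library 3), ordered by mean within each family. In each family with a member among the 10 that member leads, and Gata1 and Tox4 are the relatives closest behind in the GATA and TOX families.

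Of 10 relatives of Gata3, Tox, Satb1 and Bcl11b, 3 were detected, and all 4 tested differed between libraries. Tox4, a widely expressed relative of Tox, had 52.7, 68.5 and 76.9 TPM. Gata1, the GATA factor of red cells and megakaryocytes, had 41.8, 37.8 and 44.6 TPM. Summed erythroid markers were 1685, 9.13 and 1497 TPM in the same libraries. Library 2 was the lowest in both, by a small margin in Gata1. Which cells the Gata1 RNA came from was not tested. Gata2, Gata4 and Tox3 were listed at 0 in every library.

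Genes upstream and downstream of the 10 were largely present. Of 12 Notch pathway genes, 8 were detected, among them the protease gene Adam10 (43.3 TPM), with the Notch target Heyl listed at 0, and 6 of the 8 tested differed between libraries. All 25 T cell genes listed as regulated by these factors were detected, and 22 of the 25 differed between libraries. They ran from the T cell receptor constant genes Trbc2 (3978 TPM) and Trac (2859 TPM) down to Myb (5.16 TPM), with a median of 448 TPM.

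Of 20 progenitor and alternative fate genes, 6 were detected, and 9 of the 11 tested differed between libraries. Id2, an inhibitor of E proteins that mature T cells also use, was highest at 212 TPM, ahead of Mef2c at 15.3 TPM, a gene of B and myeloid cells that was highest in library 3 (11.9, 11.6 and 22.3 TPM). Tal1 and Hoxa9, factors of stem cells, were listed at 0. Of 7 thymocyte stage genes, 2 were detected, and both differed between libraries. Cd1d1 had 131 TPM, and the recombinase gene Rag2 was listed at 0.

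Among 8 genes of the CD4 and CD8 choice, 7 were detected, and 4 of the 8 differed between libraries. Cd4 had 361, 511 and 492 TPM in libraries 1, 2 and 3, and Zbtb7b, the factor that fixes the CD4 fate, had 9.02, 9.21 and 8.66 TPM. Cd8b1 had 13.4, 14.7 and 17.4 TPM, and Cd8a 3.85, 1.28 and 4.04 TPM. Eomes was the lowest at 0.530 TPM. Runx3, which with Zbtb7b decides this choice in the thymus, had 6.43, 7.76 and 7.11 TPM. The authors' posterior intervals for Runx3 in each library include the TPM of Zbtb7b. Those intervals belong to the posterior mean TPM, a different scale from TPM, so they cannot show whether Runx3 and Zbtb7b differ in level. These counts of list genes that differed between libraries come from the chi-square test and are to be read against the 54.5% of all genes.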

How the data were processed

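Each of the 3 libraries came with 4 tables, and the labels place all of them in 1 group. The authors deposited expected counts (estimated reads), TPM, FPKM and posterior TPM bounds per gene, and per transcript the percent of the gene's TPM, from an alignment to the transcriptome of mm10 with GENCODE M21, per the deposited readme and the file headers. A second deposited transcript table holds estimated counts and TPM from an index of M21, and a deposited gene table holds whole-number counts for GENCODE M4. The bounds are a signal of the authors' posterior estimate, per the file headers, and gene length comes from the same deposited table. The bounds need not contain the TPM, as for Ets1 in library 1 (512 TPM, bounds of 413 to 426). Which programs and versions made them, and whether counting used strand, is not stated in the sources used here.

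Genes were matched by identifier. The 26345 other entries held 0.117%, 0.124% and 0.135% of counts and were left out. Expected counts were rounded. A chi-square test of homogeneity against TMM-scaled totals (edgeR 4.0.16, R 4.3.3) was run on 13071 genes with 30 or more counts, with Benjamini-Hochberg adjustment over all of them and a threshold of 0.05. The same squares were set against the negative binomial variance at edgeR's common dispersion. The labels call the libraries technical replicates without saying whether they share an RNA pool, so the p-values reflect the spread between libraries alone. Intervals of ratios are exact binomial at 95% and cover counting error only, since reads copied by PCR carry no molecular identifiers and are not separate molecules. Transcripts whose successive starts lie within 500 bases of each other form a start group. A group can therefore span more than 500 bases, as the proximal Runx3 group does (chr4:135152496-135153505). Both tests were tested on simulated data. Alternatives were DESeq2 1.42.0 size factors, total counts, scaling in 20 bins of gene length, other count minimums, start gaps of 100 and 1000 bases, thresholds of 5 and 10 TPM, the other tables and leaving out each library. Python 3.11.15, pandas 2.3.3, numpy 2.4.6 and scipy 1.17.1 were used. The members and gene lists were chosen with earlier results of these data known. All 10 members are named, and from each list the 2 highest and the lowest gene, those listed at 0 and those whose role pairs with a member. Some genes that this rule would name are not reported here.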

Additional observations from a re-analysis of the deposited data

How the results depend on the processing

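The 10 genes were detected at 5 TPM, in posterior mean TPM, in the second transcript table and without each library, and 9 of them at 10 TPM, where Runx3 was under the threshold. Leaving out 1 library in turn gave 2106 to 6012 genes differing between libraries (7122 with all 3, and 2106 without library 1), 4 to 6 members (8 with all 3, and 4 without library 3), and 49 to 104 genes beyond the common dispersion (127 with all 3, and 49 without library 2). Among all genes, 663 had an unadjusted p under 0.05 in that last comparison. Members beyond it stayed at 0 under each scaling, table and left-out library run. The members called were 7 with total counts, with no count minimum and in M4 counts. The log2 ratio of library 1 to libraries 2 and 3 changed sign in TPM, to -0.16 for Tcf7, -0.20 for Bcl11b, -0.34 for Tox and -0.18 for Gata3, and to -0.27 for Cbfb and -0.21 for Runx3, all positive in TMM-scaled counts, and for Lef1, which was near 0, to 0.060 in the second table and 0.0145 in M4 counts. For Runx3 it was also negative in M4 counts (-0.52) and in the second table (-0.01), and with total counts it was negative for Tox (-0.07), Runx3 (-0.09) and Cbfb (-0.03). The cause was not tested. No paired analysis was possible because there is 1 group. Ranks of the 10 genes by level were the same in posterior mean TPM and FPKM, Tcf7 and Lef1 exchanged places in the second table and without library 3, and Bcl11b and Runx1 did so without library 1. Of 50 leading-transcript shares recomputed, 36 moved by less than the spread among libraries and 14 by more. The leading shares of Satb1 (28.0%) and Runx1 (54.6%) became 9.95% and 46.0% in the second table, and Runx3-201 became 59.6% by posterior mean percent. Depth limits Runx3, Cbfb and Runx1, whose transcript shares rest on 164 to 688 counts per gene and library.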
